A study of Mus musculus with 2 samples.

Results

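Mouse carries the microRNAs miR-193 and miR-365 as paired hairpin genes, with Mir193b and Mir365-1 on chromosome 16 and Mir193a and Mir365-2 on chromosome 11. These 4 genes, of the 1973 counted in the deposited tables, were described in stomach at embryonic day 16.5. They were chosen by name and position after earlier results of the same data were known. Among those results was the large difference of Mir193b between both libraries, so that difference is given as a description and carries no test. In these stomachs Mir193b was the highest of the 4, at 245.65 counts-per-million (CPM) in replicate 1 and 31.6 CPM in replicate 2. Mir193a stood at 22.8 and 19.2 CPM, Mir365-2 at 4.53 and 2.88 CPM, and Mir365-1 had 0 reads in replicate 1 and 3 reads in replicate 2.

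The series held 1 group, healthy stomach of the mouse strain B6NCrl at age 16.5 days of gestation, from pooled male and female embryos and with no treatment. It comprised 2 biological replicates, which carry 1 donor label. Replicate 2 was pooled from 41 embryos, and the pool size of replicate 1 is not given in the labels. Because each library is a pool and nothing gives the dissection of single animals, the spread between both libraries may be partly technical. Small RNA under 30 nucleotides was sequenced, and a CPM value here is a gene's sense-strand reads divided by all sense-strand reads assigned to genes, on the CPM scale.

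A microRNA gene is transcribed as part of a longer RNA that folds into a hairpin, and cutting of the hairpin releases a 5p and a 3p arm. Usually 1 arm is loaded into the silencing complex, where the seed, bases 2 to 8 counted from the 5′ end, pairs with target messenger RNAs and lowers their output. In mouse, the chromosome 16 hairpins are known from brown fat, where they are enriched and have been studied for a part in brown adipocyte differentiation. In human cells, miR-193 is known to repress the plasminogen activator urokinase, cyclin D1 and the survival protein MCL1, and it has been studied as a tumour suppressor. In cultured cells, miR-365 has been described to lower cyclin D1 and interleukin 6.

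The 4 hairpins are shown because the tables count whole hairpins and because the arms they share decide which reads can be placed. The sequences are from RefSeq on GRCm38.p6, in which all 4 genes were found, and capitals mark the annotated mature arms, 5p first. Mir193b lies at chr16:13449523-13449601, Mir365-1 at chr16:13453840-13453926, Mir193a at chr11:79711969-79712034 and Mir365-2 at chr11:79726400-79726511, each on the plus strand.
Mir193b: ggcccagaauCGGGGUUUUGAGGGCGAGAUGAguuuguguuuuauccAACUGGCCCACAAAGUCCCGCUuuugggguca
Mir193a: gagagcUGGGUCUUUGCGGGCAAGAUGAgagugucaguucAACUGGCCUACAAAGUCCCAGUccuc
Mir365-1: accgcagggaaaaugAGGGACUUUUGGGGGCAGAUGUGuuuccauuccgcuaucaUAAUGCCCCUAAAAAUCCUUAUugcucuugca
Mir365-2: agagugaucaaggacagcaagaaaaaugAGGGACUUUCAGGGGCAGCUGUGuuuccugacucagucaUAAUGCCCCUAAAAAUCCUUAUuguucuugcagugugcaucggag

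The mature arms follow, grouped by seed, with the seed in capitals. They show that the 3p arms of both miR-193 genes share a seed but not a whole sequence, while the 3p arms of both miR-365 genes are the same molecule.
miR-193b-3p: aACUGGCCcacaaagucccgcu
miR-193a-3p: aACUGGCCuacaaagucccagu
miR-365-3p: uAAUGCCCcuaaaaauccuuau
miR-365-1-5p: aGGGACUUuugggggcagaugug
miR-365-2-5p: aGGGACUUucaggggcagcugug
miR-193b-5p: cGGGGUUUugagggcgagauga
miR-193a-5p: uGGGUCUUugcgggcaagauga

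Among the counted genes with a RefSeq sequence, the seed ACUGGCC occurred in miR-193b-3p and miR-193a-3p alone, and the seed AAUGCCC in miR-365-3p alone. The miR-365 5p arms also shared a seed, whereas the miR-193 5p arms did not. With the chromosome 16 base written first and positions counted from the 5′ end of the arm, miR-193b-3p and miR-193a-3p matched at 19 of 22 positions and differed by C9U, G20A and C21G. Their 5p arms matched at 17 of 22 positions and differed by C1U, G5U, U6C, A11C and G16A. The miR-365 5p arms matched at 20 of 23 positions and differed by U10C, G11A and A19C.

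A read of the shared miR-365-3p fits both miR-365 hairpins equally well. The longest stretch the miR-365 hairpins have in common was 27 bases, ucaUAAUGCCCCUAAAAAUCCUUAUug, which holds the whole 3p arm and some bases on each side. The longest stretch common to both miR-193 hairpins was 10 bases, acaaaguccc, shorter than either mature arm. The tables keep reads that map to more than 1 place apart as a total that names no gene, 25.1% of the reads in replicate 1 and 25.2% in replicate 2. How many of them were miR-365-3p cannot be read from the tables. Counts of the miR-365 hairpins are therefore uncertain and cannot be taken as the level of miR-365-3p.

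At both loci the hairpins lay on the same strand and outside the exons and introns of any other gene annotated on that strand in GENCODE M21. The chromosome 16 hairpins were 4.24 kb apart, inside the span of Gm15738, an antisense gene on the minus strand. Mrtfb, which encodes a coactivator of serum response factor, ended 32.0 kb upstream, and the processed transcript Gm32817 began 8.62 kb downstream. The chromosome 11 hairpins were 14.4 kb apart, with the long noncoding RNA gene Gm11205 ending 6.55 kb upstream and Rab11fip4, which encodes an effector of Rab11 GTPases, ending 13.9 kb upstream.

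**Figure D1:**
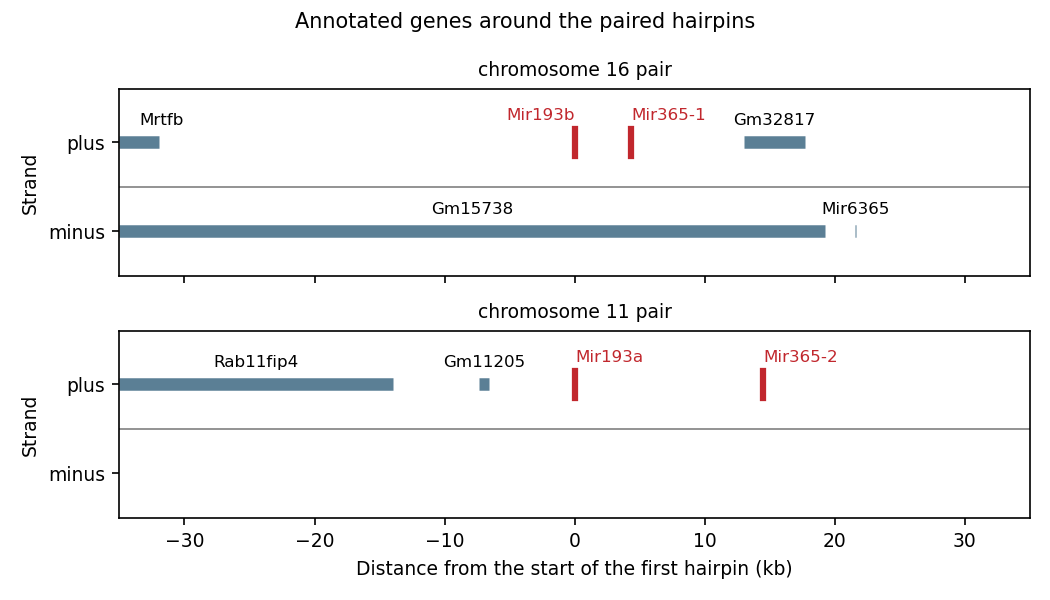
Genes annotated in GENCODE M21 around the hairpin pair of chromosome 16 (top) and of chromosome 11 (bottom), by strand, against the distance in kb from the start of the first hairpin. The gap between hairpins is 4.24 kb on chromosome 16 and 14.4 kb on chromosome 11, and no other gene on the plus strand covers a hairpin.

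Replicate 1 held 15746238 reads, of which 7734578 were sense reads assigned to genes, and replicate 2 held 15958656 reads with 7983714 such sense reads. A count of 3 reads, the floor used here, equals 0.388 CPM in replicate 1 and 0.376 CPM in replicate 2. All intervals below are exact 95% binomial (Clopper-Pearson) intervals and cover counting error only, since reads from amplified libraries are not independent molecules. The libraries differed beyond counting error over the 751 genes with a sense read (chi-square of 199754 on 750 degrees of freedom), so they were not treated as copies of 1 library. At this depth repeat preparations of 1 pool could differ as well, and the count of 2 samples rests on the labels. Markers of the labelled tissue were present: the smooth muscle hairpins Mir143 and Mir145a together reached 202084 and 197398 CPM, and the gut epithelial Mir192, Mir194-1, Mir194-2 and Mir215 together 4171 and 3774 CPM.

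Mir193b (ENSMUSG00000076972.2), a hairpin of 79 bases, was counted 1900 times in replicate 1 and 252 times in replicate 2. These counts correspond to 245.65 CPM (234.7 to 256.9) and 31.6 CPM (27.8 to 35.7), a mean of 139 ± 151 CPM (SD, n = 2). The SD exceeded the mean, and the counting intervals of both libraries lay far apart. By mean CPM the gene ranked 180 of 1973, but it ranked 159 in replicate 1 and 236 in replicate 2. The genes next above it by mean were Mir1306 (145 ± 21.8 CPM) and Mir330 (142 ± 1.75 CPM), and those next below were Mir92b (135 ± 17.1 CPM) and Mir7-1 (130.1 ± 39.6 CPM). None of these 4 neighbours in level differed from Mir193b beyond its spread, which follows from choosing them as nearest by mean. In bulk tissue, fewer cells of a type and less RNA per cell cannot be told apart, for this and every other gene.

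Mir193a (ENSMUSG00000065395.1), a hairpin of 66 bases, had 176 reads in replicate 1 and 153 in replicate 2. These are 22.8 CPM (19.5 to 26.4) and 19.2 CPM (16.2 to 22.5), with overlapping intervals and a mean of 20.96 ± 2.54 CPM (SD, n = 2). It ranked 262 by mean, between Mir1249 (21.3 ± 19.4 CPM) and Mir1198 (20.9 ± 4.52 CPM). The next outward on each side were Mir196a-2 (21.4 ± 9.75 CPM) and Mir302d (20.5 ± 0.819 CPM). All of these lay within the spread of Mir193a, again because they were chosen as nearest by mean.

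Mir365-2 (ENSMUSG00000065489.1), the chromosome 11 miR-365 hairpin of 112 bases, had 35 reads in replicate 1 and 23 in replicate 2. These are 4.53 CPM (3.15 to 6.29) and 2.88 CPM (1.83 to 4.32), which overlap, with a mean of 3.70 ± 1.16 CPM (SD, n = 2). It ranked 329, with Mir6969 (3.76 ± 0.894 CPM) and Mir3076 (3.75 ± 0.366 CPM) next above. Next below were Mir1964 (3.70 ± 0.983 CPM) and Mir504 (3.63 ± 0.351 CPM). All lay within the spread of Mir365-2, as genes chosen for the nearest mean do.

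Mir365-1 (ENSMUSG00000065449.1), the chromosome 16 miR-365 hairpin of 87 bases, had no read in replicate 1 and 3 reads in replicate 2. The 0 in replicate 1 has an exact interval that reaches 0.477 CPM, and the 3 reads in replicate 2 are 0.376 CPM (0.0775 to 1.10). Both libraries were thus at or under the floor, and no fold between them is given. The gene shared rank 648 with 7 other genes of the same counts.

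The order Mir193b, Mir193a, Mir365-2, Mir365-1 was the same in both libraries. Mir193b exceeded Mir193a by 10.8-fold in CPM in replicate 1 (9.25 to 12.7) and by 1.65-fold in replicate 2 (1.34 to 2.03), so the direction was shared while the size was not. Their mean levels differed by less than the SD of Mir193b. Mir193a exceeded Mir365-2 by 5.03-fold (3.48 to 7.45) in replicate 1 and 6.65-fold (4.27 to 10.8) in replicate 2, which is further apart than the spread of either gene. Reads of the shared miR-365-3p may be missing from the Mir365-2 count, so this excess is one of counted reads only. These levels were not divided by hairpin length, because a small RNA read covers a mature arm rather than a part of a long transcript.

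**Figure D2:**
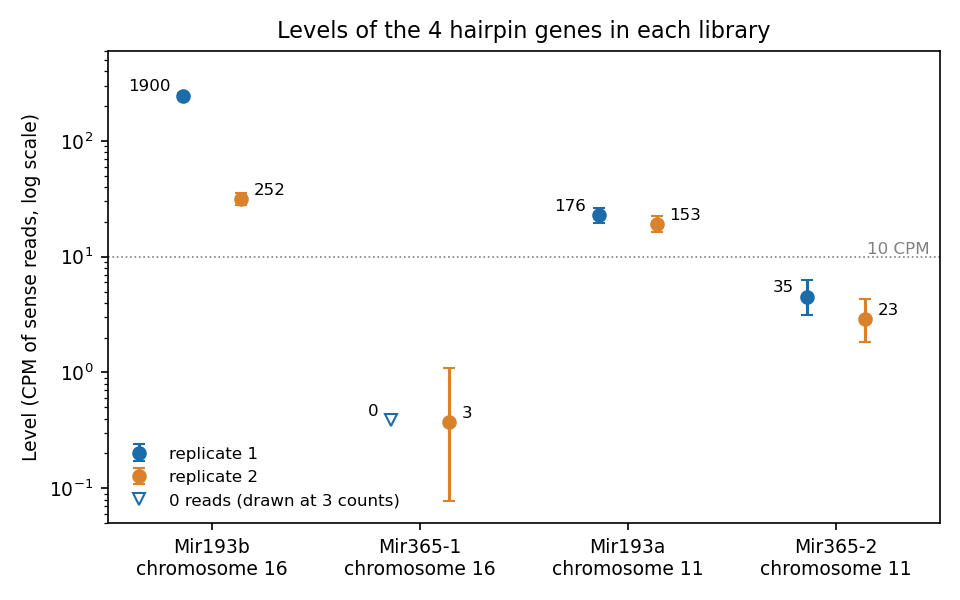
Level in CPM on a log scale for each of the 4 hairpin genes in replicate 1 and replicate 2, with bars for the exact 95% counting interval and the number of reads beside each point. Mir193b stands at 245.65 CPM in replicate 1 and 31.6 CPM in replicate 2, while the intervals of Mir193a and of Mir365-2 overlap between libraries. The open triangle is Mir365-1 in replicate 1, with 0 reads, drawn at the floor of 3 counts.

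Together the 4 genes collected 2111 reads in replicate 1, against 431 in replicate 2, or 0.0273% and 0.00540% of the sense reads. Mir193b supplied 1900 of the 2111 reads in replicate 1 and 252 of the 431 reads in replicate 2. The miR-365 hairpins supplied 35 and 26 reads. The hairpins with the shared miR-193 3p seed, Mir193b and Mir193a, held 268 CPM in replicate 1 and 50.7 CPM in replicate 2. Mir193a made up 8.48% of that sum in replicate 1 and 37.8% in replicate 2.

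The chromosome 16 pair had 9.00 times the counted reads of the chromosome 11 pair in replicate 1 (1900 against 211 reads, interval 7.81 to 10.4). In replicate 2 it had 1.45 times as many (255 against 176 reads, interval 1.19 to 1.77). The mean over libraries was 5.23 ± 5.34 (SD, n = 2). Both libraries gave the chromosome 16 pair the higher count, and the size of the excess depended on the library.

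Within the chromosome 16 pair the counted reads lay almost wholly in 1 hairpin. With the floor of 3 reads standing in for the 0 reads of Mir365-1 in replicate 1, Mir193b had 633-fold more reads. This is no lower bound, since the interval of that 0 reaches 0.477 CPM, above the floor of 0.388 CPM. In replicate 2 Mir193b had 84-fold more reads than Mir365-1 (28.4 to 410.1). Reads of the shared 3p arm may be missing from the Mir365-1 count, so the gap is one of counted reads only. Across the table, 84 pairs of adjacent hairpins on 1 strand, at most 10 kb apart, had both hairpins at 10 CPM or more on average, and their levels differed by a median of 6.29-fold and at most 421-fold. The chromosome 16 pair is not among these 84, since Mir365-1 lay under 10 CPM, and the chromosome 11 pair is more than 10 kb apart. Asking for 10 CPM in both hairpins limits how large such a gap can be. With a cut at 1 CPM there were 102 pairs, whose levels differed by a median of 7.97-fold and at most 10855-fold.

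For comparison, pairs of counted hairpins were taken for which RefSeq lists 1 mature arm common to both and to no other gene, and a further arm that differs between them, as for the miR-365 hairpins. There were 22 such pairs. In 15 both hairpins reached a mean of 10 CPM, in 2 only 1 did, and in 5 neither did. The 5 low pairs were those of Mir19b, Mir135a, Mir365, Mir3070 and Mir29b, named after their values were seen. The higher hairpin of a pair had a median of 63.0 CPM, against 3.70 CPM for Mir365-2, and 19 of the 22 pairs had a higher leading hairpin than the miR-365 pair. The further arm can itself be shared with another gene, as for Mirlet7c-2, which was paired with Mirlet7a-1 and also with Mirlet7c-1. Which arm gives most of the reads was not considered. The part of the reads left out may therefore differ from pair to pair, and these values do not compare like losses.

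**Figure D3:**
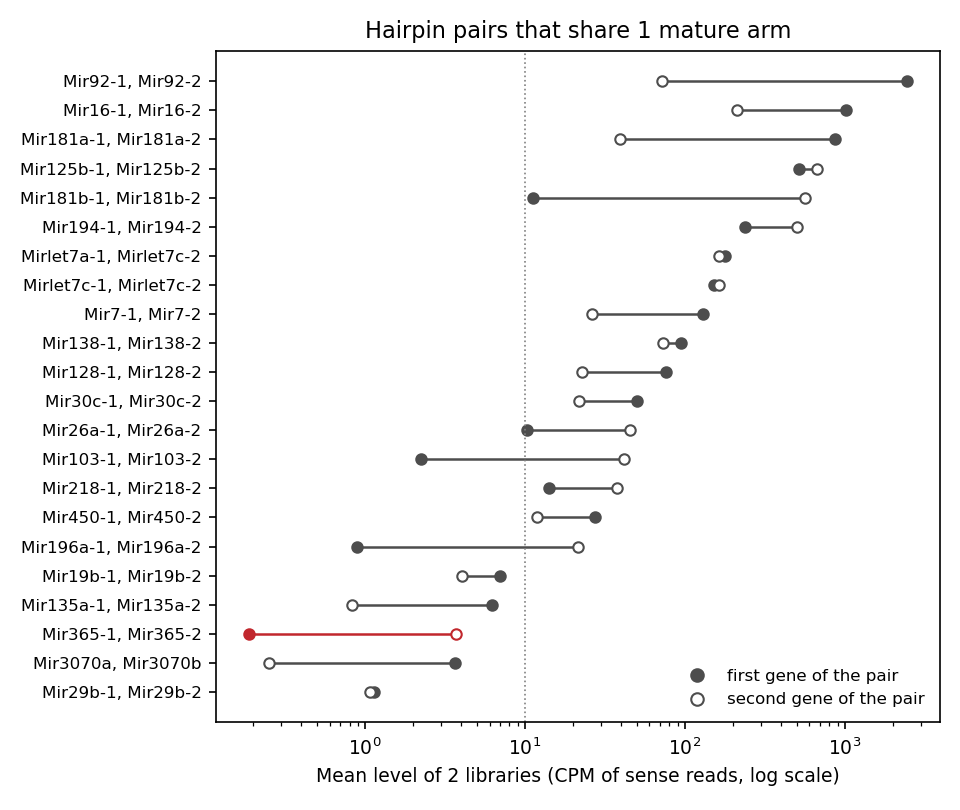
Mean level over both libraries of the 22 hairpin pairs that share exactly 1 mature arm, in CPM on a log scale, with the first-named hairpin of a pair filled, the other open, and a dotted line at 10 CPM. The miR-365 pair, at 3.70 and 0.188 CPM, is 1 of 5 pairs with neither hairpin at 10 CPM.

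The difference between both libraries was set out on a log2 scale as replicate 1 over replicate 2, after trimmed mean of M values (TMM) scaling and with 0.5 added to each count. The log2 ratio of Mir193b was 2.78 (2.59 to 2.97), or 6.85-fold (6.01 to 7.85). That of its paralog Mir193a was 0.06 (-0.26 to 0.39), or 1.05-fold, and that of Mir365-2 was 0.46, or 1.37-fold (0.795 to 2.45). The sum of both miR-193 hairpins was 4.66-fold higher in replicate 1 (interval 4.19 to 5.2).

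Among 289 genes that averaged at least 10 CPM, 21 (7.27%) were at least 2-fold higher in replicate 1 and 2 (0.692%) at least 2-fold higher in replicate 2. Mir193b and Mir193a are the 2 members that reached 10 CPM, and Mir193b is 1 of the 21. That count gives no support for a pattern, because the difference of Mir193b was known when the genes were chosen. Over the 289 genes the log2 ratio had a median of 0.02 and an SD of 0.64, with quartiles at -0.21 and 0.33. Mir193b was the third from the top, after Mir206 and Mir133b, and Mir193a lay between the quartiles.

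Written as a ratio of ratios, the same difference does not depend on how the libraries are scaled, and it is again a description of values known at the choice of genes. The ratio of Mir193b to Mir193a was 6.55 times higher in replicate 1 than in replicate 2 (counting interval 5.04 to 8.51). The ratio of Mir193b to Mir365-2 was 4.95 times higher (2.74 to 8.77). For Mir193a to Mir365-2, the hairpins of 1 locus, the value was 0.756 (0.408 to 1.38). Among the 84 neighbouring pairs, the log2 ratios of neighbours differed by a median of 0.23, by 1 or more in 10 pairs, and by at most 1.71. Among the 102 pairs with a cut at 1 CPM, they differed by a median of 0.29, by 1 or more in 17 pairs, and by at most 3.59. Neither pair of members is in these sets, and Mir193b and Mir193a are not neighbours. Whether Mir365-1 moved with Mir193b was not detectable at 0 and 3 reads.

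**Figure D4:**
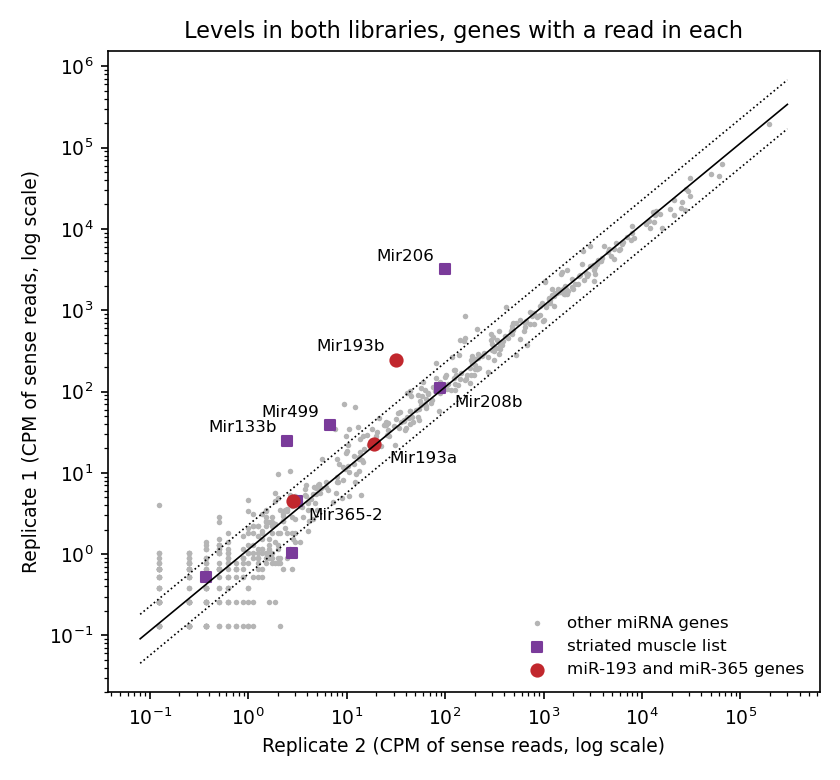
Level of each gene with a read in both libraries, in CPM on log axes, replicate 1 against replicate 2, with the miR-193 and miR-365 genes and the striated muscle list marked; Mir365-1 had no read in replicate 1 and is not drawn. The solid line marks equal levels after TMM scaling and the dotted lines 2-fold. Mir193b, at 245.65 CPM in replicate 1 and 31.6 CPM in replicate 2, lies above the upper dotted line, while Mir193a, at 22.8 and 19.2 CPM, lies on the solid line.

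Among genes averaging at least 10 CPM, the 10 whose log2 ratio between libraries was nearest to that of Mir193b, judged on 2 libraries only, were Mir129-1, Mir133b, Mir499, Mir350, Mir129-2, Mir1249, Mir702, Mir667, Mir574 and Mir7689. For Mir129-1 there were 536 reads in replicate 1 against 75 in replicate 2, and for Mir129-2 there were 494 and 97. Both belong to the neural marker list. Mir133b, a striated muscle microRNA, had 193 and 20 reads, and Mir499, encoded in a myosin gene, had 297 and 54. Mir350 had 6494 and 1278 reads and was the most abundant of the 10. The log2 ratios of the 10 ran from 1.34 for Mir7689 to 3.10 for Mir133b.

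Some striated muscle markers were, like Mir193b, higher in replicate 1. The summed level of the list was 3363 CPM in replicate 1 and 205 CPM in replicate 2. Of 10 listed genes, 9 had a row and 4 reached 10 CPM, with a median log2 ratio of 2.71 against 0.02 over all 289 genes. Of these, 3 were at least 2-fold higher in replicate 1 (Mir206, Mir133b and Mir499), beside 7.27% of all 289 genes, and none was at least 2-fold higher in replicate 2. Mir206, the skeletal muscle microRNA, had 24624 of the list's 26012 reads in replicate 1 and 797 of its 1633 reads in replicate 2, with a log2 ratio of 4.81. The cardiac and slow-fibre Mir208b did not pass 2-fold, with 851 and 712 reads and a log2 ratio of 0.12. Under 10 CPM, Mir1b was lower in replicate 1, with 8 and 22 reads, Mir1a-1 had 4 and 3 reads, and Mir208a had 35 and 25. Mir1a-2 had no row. Mir133a-1 and Mir133a-2 had no read in either library. Where gene copies give identical mature arms, as the miR-1a and miR-133a genes do, the limit described for miR-365 applies, and a 0 or a low count does not show absence. The part of these cells in the level of Mir193b was not tested.

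Other marker lists differed less between libraries. The erythroid sum was 1240 CPM in replicate 1 and 591 CPM in replicate 2, with 1 of 3 genes at least 2-fold higher in replicate 1. That gene was Mir451a, at 8396 and 3336 reads. The other erythroid genes did not share this difference. Mir144 had 1073 and 1273 reads, with a log2 ratio of -0.38, and Mir486 had 122 and 106 reads, with a log2 ratio of 0.07. The neural sum was 1642 and 1238 CPM. Of 5 neural genes at 10 CPM or more, 2 were at least 2-fold higher in replicate 1, both Mir129 hairpins. Over all 289 genes at 10 CPM or more, this share was 7.27%. Mir124a-1, Mir124a-2 and Mir124a-3, the defining neuronal hairpins, had no read in either library, but they too give 1 identical mature arm, so these counts do not show that it was absent. The liver microRNA Mir122 had 1821 and 1210 CPM.

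After TMM scaling, no gene of the remaining marker lists passed 2-fold in either direction. Without this scaling, the smooth muscle Mir145a, at 5317 and 2540 CPM, was more than 2-fold higher in replicate 1. So was the mesenchymal Mir199b, at 2300 and 1040 CPM. Their log2 ratios after TMM scaling were 0.88 and 0.96, and that of the other smooth muscle gene, Mir143, was -0.17. Over all 289 genes, 7.27% were at least 2-fold higher in replicate 1 and 0.692% in replicate 2, and short lists can hold none at such shares. The median log2 ratio was 0.36 over 2 smooth muscle genes, -0.21 over 7 epithelial genes, 0.03 over 4 gut epithelial genes, 0.46 over 4 endocrine genes, 0.34 over 4 mesenchymal genes and 0.25 over 3 leukocyte genes. The endothelial Mir126a had a log2 ratio of -0.18. For smooth muscle, endocrine, gut epithelium and leukocytes the log2 ratio of the summed reads was below 0 while the median gene lay above 0. Whether any of these cell types is the source of Mir193b was not tested.

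**Figure D5:**
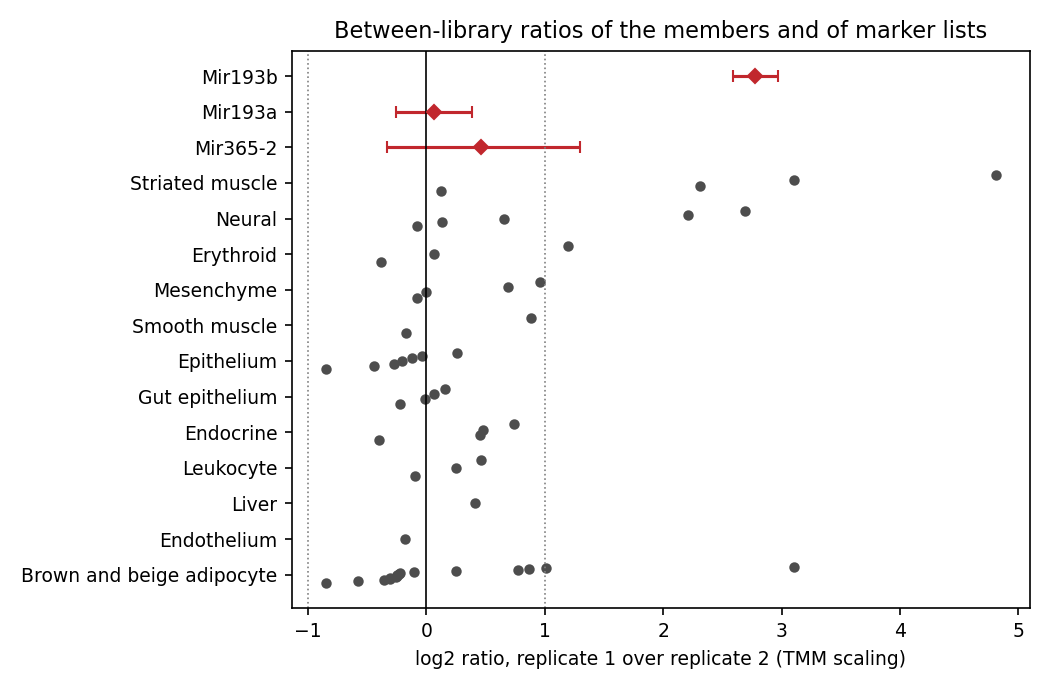
Log2 ratio of replicate 1 over replicate 2 for Mir193b, Mir193a and Mir365-2, as diamonds with 95% counting intervals, and for each list gene that averaged at least 10 CPM, as a dot per gene (Mir193b left out of the adipocyte row). Dotted lines mark 2-fold in each direction. Mir193b at 2.78 lies among 3 striated muscle genes and both Mir129 hairpins of the neural list, while Mir208b of the muscle list lies at 0.12.

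The known link of the chromosome 16 hairpins with brown fat was set beside a list of 23 microRNAs described as promoting or restraining brown and beige adipocytes, Mir193b, Mir365-1 and Mir365-2 among them. Of these, 22 had a row and 17 reached 10 CPM. At least 2-fold higher in replicate 1 were 3 genes, beside 7.27% of all 289 genes. They were Mir193b, whose difference was known when the list was made, Mir133b, which also stands in the striated muscle list, and Mir30b, with 2069 and 932 reads and a log2 ratio of 1.01. None was at least 2-fold higher in replicate 2. The median log2 ratio was -0.23, against 0.02 over all 289 genes, and that of Mir193b was 2.78. Mir455, known in mouse to promote brown adipocyte differentiation, had 1585 CPM in replicate 1 and 1644 CPM in replicate 2, with a log2 ratio of -0.23. Mir182 and Mir203, described in mouse as needed in brown fat cells, had log2 ratios of -0.25 and -0.85. Mir27b, which restrains brown fat genes in mouse cells, had a log2 ratio of -0.31. Mir378a had no row. The presence of brown fat in either pool was not tested.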

How the data were processed

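Small RNA of stomach was measured in 2 libraries of 1 group. The deposited values are raw read counts per hairpin gene, made by the authors on mm10 with GENCODE M4 per the file headers. They are given without regard to strand, on the gene's strand and on the opposite strand; sense counts were used. For the aligner and counter, names were not given in the sources used. The 4 summary totals were left out of library sizes. Per library, unmapped reads were 21.3% and 20.3% in replicates 1 and 2, reads in no gene 2.81% and 3.11%, and opposite-strand reads 3.35% and 2.82% of assigned reads. Since multi-position reads have their own total, it is inferred that gene counts leave them out.

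CPM used sense-assigned reads. Ratios used TMM in edgeR 4.0.16 (R 4.3.3) over genes averaging at least 10 CPM, with 0.5 added. With 1 library on each side no test and no p-value is given; a gene is called past 2-fold at a mean of 10 CPM or more. Coordinates are from GENCODE M21 (1894 of 1973 identifiers matched) and sequences from RefSeq. DESeq2 1.42.0 gave alternative size factors. Python 3.11.15, numpy 2.4.6, pandas 2.3.3, scipy 1.17.1, Biopython 1.88 and matplotlib 3.10.9 were used. The ratio step was tested on simulated counts that held counting error only. It therefore does not test the intervals or calls for libraries that differ beyond counting error, as these do.

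The members and lists were chosen with earlier results of these data known. Named were the 4 genes, the marker and adipocyte list genes past 2-fold, the 10 genes with a ratio nearest to Mir193b, and 2 genes on each side in level. Other genes, such as those named as absent, near the median or in the shared-arm pairs, were named after their values were seen.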

Additional observations from a re-analysis of the deposited data

How the results depend on the processing

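The log2 ratio of Mir193b stayed between 2.75 and 2.96 over the alternatives (total-read and DESeq2 scaling, TMM over all genes, other added counts and both strands), that of Mir193a between 0.05 and 0.25 and that of Mir365-2 between 0.38 and 0.64. TMM over all genes was chosen after seeing the data. None of these alternatives changed the sign of the log2 ratio of Mir193b, Mir193a or Mir365-2. The number of genes at least 2-fold higher in replicate 2, 2 in the report, was 0 with total-read scaling, 1 with TMM over all genes, 25 with genes averaging at least 1 CPM and 124 with no filter. The number at least 2-fold higher in replicate 1, 21 in the report, was 29 with total-read scaling. It was 35 with genes averaging at least 1 CPM, 10 with at least 100 CPM and 143 with no filter. The genes added by a lower filter or none have few reads, by construction of the filter. The median log2 ratio over the genes kept, 0.02 in the report, was 0.21 with total-read scaling. It was -0.06 with genes averaging at least 100 CPM and -0.14 with no filter. With CPM taken over all reads of a library, Mir193b averaged 68.2 CPM, Mir193a 10.4 CPM and Mir365-2 1.83 CPM. The ratio of the chromosome 16 pair to the chromosome 11 pair was 1.45 without replicate 1 and 9.00 without replicate 2, so 1 library sets its size. For Mir193b the level was 31.6 CPM without replicate 1 and 245.65 CPM without replicate 2. No paired analysis was possible because the series holds 1 group. Depth limits the miR-365 hairpins, with 35 and 26 reads in replicates 1 and 2, beside the shared arm described for them.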

Other observations

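The tables counted few other genes near these loci. Within 1 Mb of the chromosome 16 pair, Mir6365, Gm27734 and Gm27671 had 0 reads in both libraries. Mir484, 706 kb away, had 2988 CPM in replicate 1 and 1535 CPM in replicate 2, with a log2 ratio of 0.78. Within 1 Mb of the chromosome 11 pair, Gm23840 had 0 reads. On the strand opposite to the 4 hairpins, Mir193a had 1 read in replicate 1, and the other hairpins had 0 in both libraries.

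Other microRNAs that are classed as tumour suppressive with cell cycle targets were also measured. Of 10 listed genes, 9 had a row and reached 10 CPM, and after TMM scaling 0 passed 2-fold in either direction. Nearest to 2-fold was Mir145a, with a log2 ratio of 0.88. Without TMM scaling Mir145a passed 2-fold, at 5317 CPM in replicate 1 and 2540 CPM in replicate 2. Over all 289 genes, 7.27% were at least 2-fold higher in replicate 1 and 0.692% in replicate 2, shares at which 9 genes can hold none. The median log2 ratio of the list was -0.17 against 0.02 over all 289 genes. Mir34a, known as a target of p53, had 263 CPM in replicate 1 and 271 CPM in replicate 2. Mir15a had 1905 and 1929 CPM, and Mir195a had 621 and 656 CPM. Mir16-2, at 242 and 182 CPM, and Mirlet7c-1, at 142 and 162 CPM, were the list members nearest in level to Mir193b.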
